A study of Rattus norvegicus with 4 samples.

Results

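Ier5l, Sap30l, Basp1, Ube2m, Ca5b, Atp13a4 and Clmn were followed as 7 of the 23999 genes in the count tables, under the working name of genes shifted alike in every cell class. They were chosen because the libraries from injected and uninjected wounds had differed in them in more than one kind of cell, so their injected against uninjected values are a description here and carry no test. The question was whether each difference belonged to certain cells or ran through a whole library, down to barcodes that hold no cell. Levels were therefore read per library in 6 cell classes, picked cell by cell with marker genes, and in barcodes of 1 to 99 unique molecular identifiers (UMIs), which hold RNA set free from broken cells. The counts went with the name for part of the list. Ier5l, Sap30l, Basp1 and Ube2m were lower in both injected libraries in all 6 classes and in these barcodes, and so was Clmn, though narrowly in keratinocyte-like cells. Ca5b went the other way, higher after injection in 5 classes, and Atp13a4 did not shift alike, since it was no lower in fibroblast-like cells.

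The 7 genes belong to no common pathway. Ier5l is a little-studied relative of Ier5, an immediate early gene, that is, one of the genes cells switch on within minutes of a stimulus. Sap30l encodes a subunit of the SIN3 complex, which carries histone deacetylases to chromatin and lowers transcription. Basp1 encodes a protein anchored to the inner face of the plasma membrane, abundant in nerve growth cones and also found in the nucleus as a repressor of transcription. Ube2m encodes the conjugating enzyme that places the ubiquitin-like protein NEDD8 on cullins and so switches on cullin ubiquitin ligases. Ca5b encodes a mitochondrial carbonic anhydrase, one of the enzymes that convert carbon dioxide and water into bicarbonate. Atp13a4 encodes a P5-type transport ATPase of a family that moves polyamines, and Clmn encodes calmin, a membrane protein with calponin homology domains, which bind actin.

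Single cells of rat skin wounds on day 4 were sequenced in 4 droplet libraries. Wounds of the 2 injected libraries had received purified migrasomes, large vesicles that form on the trailing fibres of moving cells, and wounds of the 2 uninjected libraries had not. A sham injection is not among the labelled groups, so the injection and its content cannot be told apart. The labels name no strain, age, sex or animal for any library, and the spread between 2 libraries may be technical, so traits of a library, of an animal and of the treatment cannot be told apart either.

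The libraries held between 75823418 and 105605297 UMIs, and between 6034 and 9831 cells each were kept, with median depths of 2092.5 and 4991 UMIs per cell in uninjected 1 and 2 and of 3456 and 8011 in injected 1 and 2. Uninjected 1 stood apart. Genes of ribosomal proteins took 19.1% of its UMIs in keratinocyte-like cells, against 8.49% to 9.96% in the other libraries, and 18.4% against 8.16% to 8.87% in barcodes below 100 UMIs. Without this library every member difference that could be fitted kept its direction. Each gated class held all or all but 1 of its 9 to 12 markers in every library, which follows from gating on them. Of the gated cells of a class, 86.2% to 99.9% lay in a cluster of the same name. Clusters were named with the same marker lists as the gate, so this is no independent check of the classes. The smallest tested classes were macrophage-like cells, with 66, 319, 470 and 317 cells in uninjected 1, uninjected 2, injected 1 and injected 2, and T and NK-like cells, with 70, 266, 338 and 135. Between 14 and 28 barcodes of kept cells were shared by a pair of libraries, at most 0.348% of the smaller one.

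The sequences before the start sites of 3 members are shown because these genes differed in opposite directions, Ier5l and Sap30l being lower and Ca5b higher after injection. RefSeq, on the rat build GRCr8, gave promoters for 6 of the 7 members, and Atp13a4 was the member without one. The stretches cover the 250 bases upstream of each start, at chr3:34143458-34143707 on the minus strand for Ier5l, chr10:42479951-42480200 on the plus strand for Sap30l and chrX:34118776-34119025 on the plus strand for Ca5b, which RefSeq lists as Car5b. Capitals mark the letters CCAAT, read on either strand (ATTGG on the other), and TATAAA.
Ier5l: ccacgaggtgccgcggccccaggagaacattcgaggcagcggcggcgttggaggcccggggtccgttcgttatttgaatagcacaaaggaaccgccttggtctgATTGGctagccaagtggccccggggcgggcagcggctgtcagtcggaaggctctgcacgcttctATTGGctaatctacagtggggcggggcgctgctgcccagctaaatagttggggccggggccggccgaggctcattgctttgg
Sap30l: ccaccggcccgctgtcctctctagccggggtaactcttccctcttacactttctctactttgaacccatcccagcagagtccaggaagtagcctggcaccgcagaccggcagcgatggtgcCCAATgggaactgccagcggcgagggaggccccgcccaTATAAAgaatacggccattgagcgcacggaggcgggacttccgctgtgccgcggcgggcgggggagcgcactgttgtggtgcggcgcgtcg
Ca5b: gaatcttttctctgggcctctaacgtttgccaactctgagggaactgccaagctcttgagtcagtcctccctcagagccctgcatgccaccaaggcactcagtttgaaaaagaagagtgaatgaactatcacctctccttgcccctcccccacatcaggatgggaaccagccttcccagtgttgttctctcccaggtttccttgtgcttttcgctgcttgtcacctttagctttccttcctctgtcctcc
Ier5l held 2 CCAAT matches, Sap30l held 1 CCAAT and 1 TATAAA match, and Ca5b held neither. Of 33469 rat promoters, 34.0% held CCAAT and 12.9% held TATAAA in the same window on either strand. The letters GGGCGG stood upstream of Ier5l, Sap30l, Basp1 and Clmn and in 30.5% of all promoters. TGANTCA stood upstream of Ca5b alone among the 6 and in 6.34% of all, GAANNTTC upstream of Ier5l alone and in 7.23%, and CACGTG and TGACGTCA upstream of none of the 6, against 5.59% and 1.59% of all. No motif was common to the members that were lower after injection. A match is a string of letters and not a measured site.

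In fibroblast-like cells Ier5l stood at 46.8 and 49.7 CPM (counts scaled to the same total in every library of a class, with TMM size factors) in uninjected 1 and 2 and at 6.27 and 4.75 CPM in injected 1 and 2. Macrophage-like cells held the highest levels, 122 and 118 CPM uninjected and 28.1 and 17.8 CPM injected. Keratinocyte-like cells had 23.8 and 21.6 CPM uninjected and 4.44 and 3.89 CPM injected. The mean level of Ier5l was thus 8.77-fold lower in the injected libraries in fibroblast-like cells, 5.23-fold in macrophage-like cells and 5.45-fold in keratinocyte-like cells, and the groups did not overlap in any of them. Where the gene was scarce the order was the same. Neutrophil-like cells had 8.42 and 12.2 CPM uninjected against 1.18 and 4.39, dendritic-like cells 7.24 and 9.85 against 1.79 and 2.63, and T and NK-like cells 4.39 and 8.61 against 0.485 and 2.43. The last rest on 1, 12, 1 and 2 UMIs and did not pass the filter on low counts. The log2 differences over the 5 tested classes ran from -3.12 (SE 0.24) in fibroblast-like cells to -2.03 (SE 0.54) in dendritic-like cells.

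Sap30l was highest in keratinocyte-like cells, at 124 and 104 CPM in uninjected 1 and 2 and 16.1 and 18.9 CPM in injected 1 and 2. Fibroblast-like cells held 48.3 and 52.6 CPM uninjected and 7.34 and 10.7 CPM injected. T and NK-like cells held 57.1 and 33.7 CPM uninjected and 7.28 and 7.29 CPM injected. In each of these classes both injected libraries lay well below both uninjected ones, by 6.50-fold, 5.58-fold and 6.23-fold in the mean. Macrophage-like cells had 37.1 and 32.8 CPM uninjected against 2.76 and 6.09, and dendritic-like cells 27.1 and 23.0 against 2.86 and 5.70. Neutrophil-like cells, at 20.0 and 9.88 CPM against 4.71 and 3.29, showed the smallest fold of the 6 classes, 3.73, and macrophage-like cells the largest, 7.89. The log2 differences ran from -2.94 (SE 0.51) to -1.82 (SE 0.55).

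Over the 6 gated classes Basp1 was the most even of the 7 in its shift, though not over the finer clusters given further on. Dendritic-like cells, the class richest in it, held 432 and 766 CPM in uninjected 1 and 2 and 128 and 184 CPM in injected 1 and 2. Fibroblast-like cells held 224 and 304 CPM uninjected and 73.0 and 88.3 CPM injected. Keratinocyte-like cells held 177 and 169 CPM uninjected and 40.1 and 39.9 CPM injected. The injected libraries were 3.84-fold, 3.27-fold and 4.32-fold lower in these classes, with no overlap. T and NK-like cells had 224 and 191 CPM against 76.2 and 52.3, and neutrophil-like cells 76.9 and 82.3 against 24.3 and 24.1. Macrophage-like cells were nearly without Basp1, at 26.5 and 10.7 CPM against 2.76 and 4.57, which is 5, 19, 6 and 9 UMIs. Up to 66.0% of the Basp1 UMIs of macrophage-like clusters in uninjected 1 could be free RNA, by a bound taken from markers of other classes. The log2 differences of Basp1 lay between -2.11 (SE 0.16) and -1.66 (SE 0.29) in all 6 classes.

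Ube2m had a pattern of its own within the groups. Keratinocyte-like cells held 199 and 302 CPM in uninjected 1 and 2 and 35.9 and 57.5 CPM in injected 1 and 2. Fibroblast-like cells held 193 and 312 CPM uninjected and 47.4 and 63.9 CPM injected. Macrophage-like cells held 117 and 258 CPM uninjected and 51.6 and 73.1 CPM injected. In every class and in the barcodes below 100 UMIs, uninjected 2 was above uninjected 1, by 1.37-fold to 2.21-fold, and injected 2 was above injected 1. Dendritic-like cells had 139 and 239 CPM against 31.4 and 36.4, T and NK-like cells 171 and 235 against 31.6 and 68.1, and neutrophil-like cells 57.6 and 88.6 against 8.25 and 14.3. The groups did not overlap in any class, and the injected libraries were lower by 3.00-fold in macrophage-like cells and up to 6.49-fold in neutrophil-like cells. The log2 differences ran from -2.76 (SE 0.48) to -1.66 (SE 0.43).

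**Figure D1:**
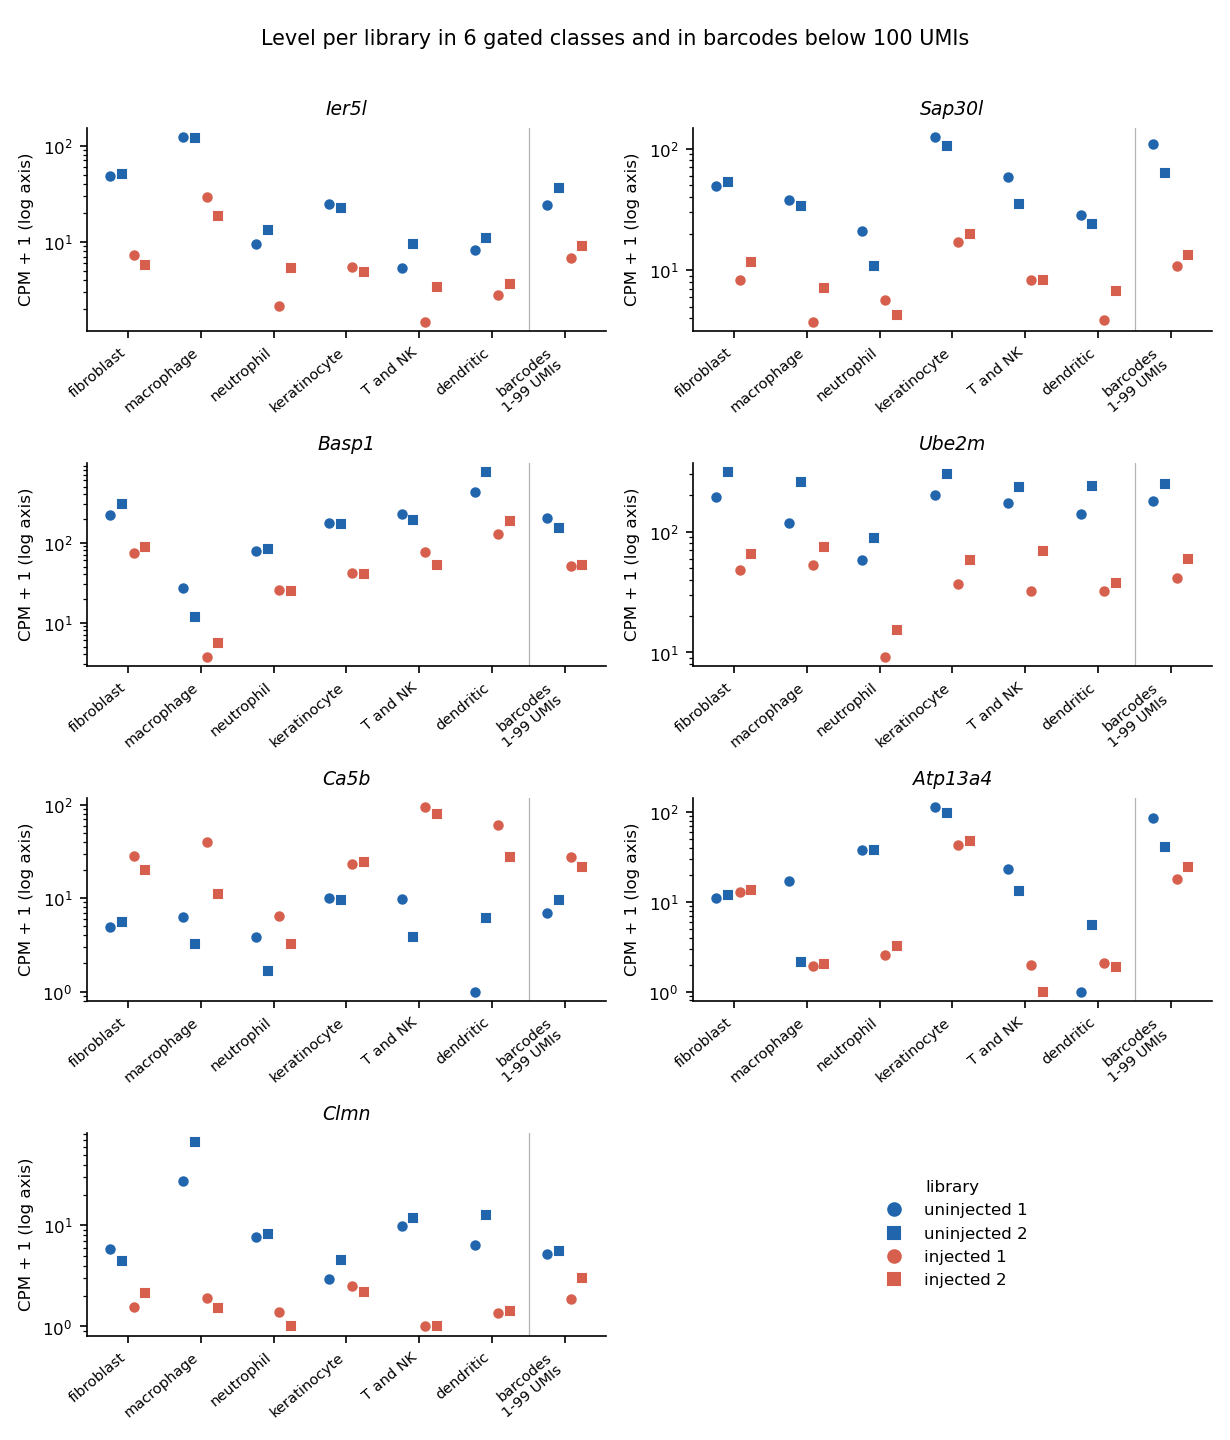
Level of each member as CPM + 1 on a log axis (vertical) in the 6 gated classes and in barcodes of 1 to 99 UMIs (horizontal), with 1 point per library (blue uninjected, red injected, circles for replicate 1 and squares for replicate 2). For Ier5l, Sap30l, Basp1 and Ube2m both red points lie below both blue points in all 7 columns, while Ca5b is reversed and Atp13a4 does not separate downwards in fibroblast-like cells.

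Ca5b was scarce in uninjected libraries and higher after injection, most of all in the lymphocyte class and among dendritic-like cells. T and NK-like cells held 8.79 and 2.87 CPM in uninjected 1 and 2 (2 and 4 UMIs) and 94.2 and 79.0 CPM in injected 1 and 2 (194 and 65 UMIs). Dendritic-like cells held 0 and 5.16 CPM uninjected and 60.0 and 26.7 CPM injected, from 0, 22, 168 and 61 UMIs. Fibroblast-like cells held 3.96 and 4.55 CPM uninjected and 27.3 and 19.0 CPM injected. The log2 differences were 4.45 (SE 0.50), 3.39 (SE 0.69) and 2.43 (SE 0.29) in these classes, all higher after injection. Macrophage-like cells had 5.30 and 2.26 CPM against 38.7 and 10.2, where uninjected libraries gave 1 and 4 UMIs. Keratinocyte-like cells had 9.09 and 8.53 CPM against 22.2 and 23.5, a 2.60-fold difference. Neutrophil-like cells overlapped, at 2.81 and 0.659 CPM uninjected and 5.50 and 2.19 CPM injected, from 2 to 14 UMIs a library, and did not pass the filter on low counts. Over the 5 tested classes the log2 difference ran from 1.38 (SE 0.16) in keratinocyte-like cells to 4.45 (SE 0.50) in T and NK-like cells. In injected 1 the 194 UMIs of T and NK-like cells lay in 100 of 338 cells, and at most 0.518% of the Ca5b UMIs of the clusters of that class could be free RNA.

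Atp13a4 was a gene of keratinocyte-like cells in every library, at 114 and 96.8 CPM in uninjected 1 and 2 and 41.7 and 46.6 CPM in injected 1 and 2. Neutrophil-like cells held 37.2 and 36.6 CPM uninjected and 1.57 and 2.19 CPM injected. Fibroblast-like cells held 9.91 and 11.0 CPM uninjected and 12.0 and 12.7 CPM injected. So the injected libraries were 2.39-fold lower in keratinocyte-like cells and 19.6-fold lower in neutrophil-like cells, but 1.18-fold higher in fibroblast-like cells (log2 difference 0.23, SE 0.23). T and NK-like cells had 5, 17, 2 and 0 UMIs, a ratio of uninjected to injected UMI shares of 18.3 with a 95% exact binomial interval of 4.49 to 160.2. Macrophage-like cells had 3, 2, 2 and 2 UMIs, a ratio of 2.94 with an interval of 0.633 to 14.8, and dendritic-like cells had 0, 19, 3 and 2 UMIs, with overlap between the groups, so these 2 classes did not pass the filter on low counts. These intervals cover counting error only.

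A small share of neutrophil-like and fibroblast-like cells carried the Atp13a4 UMIs of these classes. In neutrophil-like cells the 106 and 111 UMIs of uninjected 1 and 2 lay in 38 and 37 cells, with up to 19 and 9 UMIs in 1 cell, and the 4 and 2 UMIs of injected 1 and 2 lay in 3 and 2 cells. In fibroblast-like cells the 212 UMIs of injected 1 lay in 42 of 785 cells, with 43 in a single cell, and the 55 UMIs of uninjected 1 lay in 22 of 328 cells. Keratinocyte markers were present in neutrophil-like cells at a summed 4761 and 1940 CPM in uninjected 1 and 2 and 1257 and 2793 CPM in injected 1 and 2, all 12 or 11 of 12 being detected, so their sum did not separate the groups as Atp13a4 did. Their part in the Atp13a4 difference was not tested. Sums of markers from the lists of some other classes did separate the groups. Macrophage markers summed to 564 and 624 CPM in fibroblast-like cells of uninjected 1 and 2 and to 1455 and 1415 CPM in injected 1 and 2, with 7 to 12 of 12 detected. Neutrophil markers there summed to 1249 and 1145 against 3179 and 2353 CPM, with 10 or 11 of 11 detected, and macrophage markers in keratinocyte-like cells to 8232 and 12854 against 18225 and 16994 CPM, with 10 or 11 of 12. All of these were higher after injection, and their part in the members' differences in these classes was not tested. The macrophage sum in keratinocyte-like cells was above that of barcodes below 100 UMIs, 7096 to 14288 CPM, in every library. Apoe, a gene of that list, was among the leading genes of a keratinocyte cluster. The part of each gene in the sum was not read, and the source of the sum was not tested. The neutrophil sum in fibroblast-like cells was above that of the low barcodes in injected 1 and 2 only, 2308 and 1535 CPM. At most 17.1% and 6.40% of the Atp13a4 UMIs of neutrophil-like clusters in uninjected 1 and 2 could be free RNA mixed as in the low barcodes. This bound was set by fibroblast markers in uninjected 1 and by keratinocyte markers in uninjected 2.

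In uninjected libraries Clmn was most abundant in macrophage-like cells, where uninjected 1 and 2 had 26.5 and 66.1 CPM (5 and 117 UMIs) and injected 1 and 2 had 0.922 and 0.508 CPM (2 and 1 UMIs). The ratio of UMI shares was 95.6, with a 95% exact binomial interval of 32.0 to 470.2. In uninjected 2 the 117 UMIs lay in 76 of 319 cells, with at most 4 in a single cell. The difference in this class was therefore spread over many uninjected cells and nearly missing from the 470 and 317 injected ones. Dendritic-like cells had 3, 50, 1 and 1 UMIs, a ratio of 26.8 (7.07 to 227.4), and neutrophil-like cells 19, 22, 1 and 0 UMIs, a ratio of 25.0 (4.25 to 1013). T and NK-like cells had 2 and 15 UMIs uninjected and 0 in both injected libraries, at least 9.41-fold lower against a floor of 3 counts over the injected group. Fibroblast-like cells, at 4.86 and 3.48 CPM uninjected and 0.565 and 1.17 CPM injected, differed by 4.82-fold. Keratinocyte-like cells, with 1.97 and 3.53 CPM against 1.49 and 1.19, differed by 2.05-fold, and the gap between the nearest uninjected and injected libraries was 0.25 on the log2(CPM + 1) scale.

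The barcodes of 1 to 99 UMIs, summing to between 2292372 and 5362603 UMIs a library, had Ca5b higher and the other 6 members lower in both injected libraries. Ube2m had 180.4 and 249 CPM there in uninjected 1 and 2 and 40.1 and 58.7 CPM in injected 1 and 2. Basp1 had 201 and 151 CPM uninjected and 49.5 and 51.0 CPM injected. Sap30l had 108 and 61.7 CPM uninjected and 9.90 and 12.2 CPM injected. The log2 differences of injected minus uninjected libraries were -2.13 (SE 0.32) for Ube2m, -1.81 (SE 0.26) for Basp1 and -2.93 (SE 0.35) for Sap30l, each inside the range of that gene over the 6 classes. Ier5l had 23.4 and 35.2 CPM against 5.83 and 7.99, with a log2 difference of -2.12 (SE 0.33), also inside its range. Ca5b had 5.85 and 8.60 CPM against 26.9 and 20.7. Atp13a4 had 84.6 and 40.4 CPM against 17.0 and 23.2, and Clmn 4.26 and 4.64 against 0.884 and 2.00. For Ca5b and Atp13a4 the log2 differences of 1.66 (SE 0.31) and -1.62 (SE 0.39) lay nearest to the keratinocyte-like values of 1.38 and -1.25. That of Clmn, -1.68 (SE 0.56), lay between the keratinocyte-like value of -1.04 and the fibroblast-like value of -2.27. In the next range of uncalled barcodes, from 100 UMIs to under 300, of which uninjected 1 had 65472 and the other libraries 1926 to 2980, Atp13a4 overlapped, at 17.5 and 41.9 CPM without TMM scaling against 15.5 and 40.8. With those added to the lower ones Atp13a4 had 27.3 and 43.7 against 17.9 and 25.6, a 1.63-fold difference where barcodes of 1 to 99 UMIs on that scale gave 2.66-fold. Ca5b overlapped too from 100 UMIs to under 300, at 8.56 and 16.3 against 33.7 and 13.6, from 84, 7, 13 and 4 UMIs. It did not overlap with the lower barcodes added. Clmn overlapped in barcodes of 10 to 99 UMIs, at 1.51 and 4.06 against 1.06 and 2.32. Keratinocyte markers took a summed 27881 to 40688 CPM in these barcodes. This free RNA comes from the same tissue as the cells, so it is no second sample of it.

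**Figure D2:**
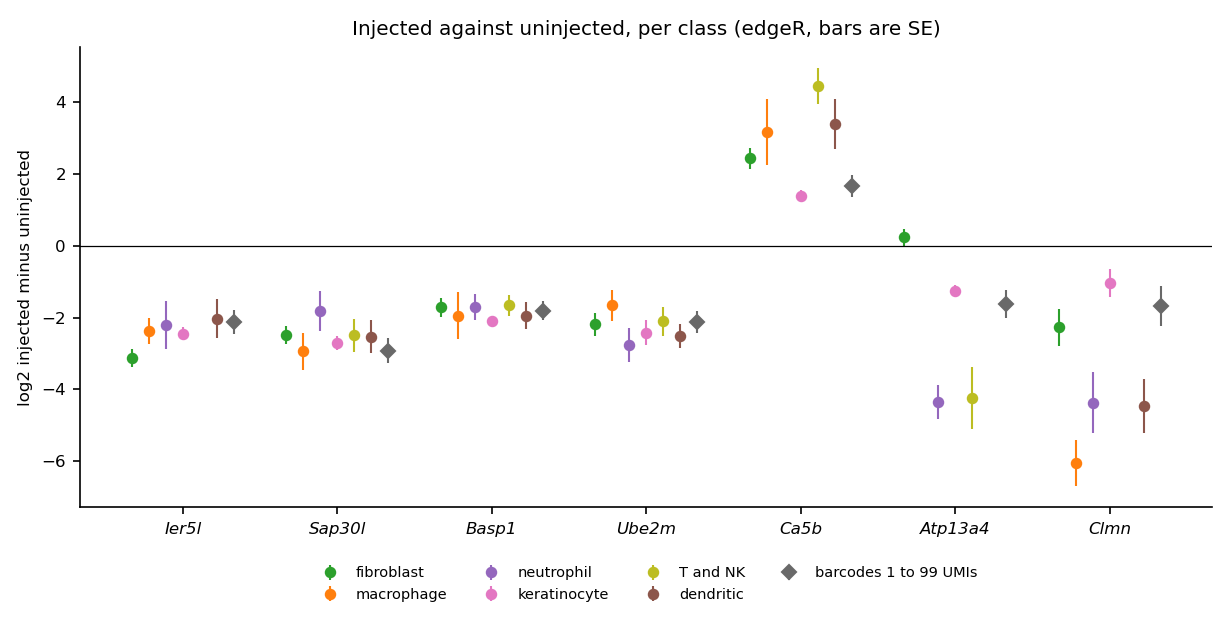
Log2 difference of injected minus uninjected libraries (vertical, edgeR estimate with bars of 1 SE) for each member (horizontal) in each class where it passed the filter on low counts (circles) and in barcodes of 1 to 99 UMIs (grey diamonds). The 4 members at the left hold between -3.12 and -1.66 in every class tested, while Ca5b, Atp13a4 and Clmn spread over 3 or more log2 units.

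Fibroblast-like cells had all 7 members without overlap between the groups, 5 lower and 2, Ca5b and Atp13a4, higher after injection, where 20.4% of the 13172 genes tested there lay wholly below and 21.6% wholly above. All 7 were also without overlap in keratinocyte-like cells (17.4% of tested genes below and 18.4% above) and in the barcodes below 100 UMIs (19.1% and 20.4%), and all 7 passed the filter on low counts in these 3 sets. In macrophage-like cells (17% and 21.5%) the 7 did not overlap either, but Atp13a4 did not pass the filter, and in T and NK-like cells (19.3% and 21.1%) Ier5l and Clmn did not. It was 6 of 7 in neutrophil-like cells (21.9% and 19.1%), without Ca5b, and in dendritic-like cells (18.1% and 19.6%), without Atp13a4, and these exceptions were also the genes that did not pass the filter there. Since these genes were picked on this contrast, nothing is read from their counts.

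Among the 5445 genes tested in all 6 classes, 1 gene lay lower by at least 1 log2 unit in both injected libraries than in both uninjected ones in every class (0.0184%), and that gene was Basp1. No gene lay higher by as much (0%). By any amount, 0.698% lay lower and 0.386% higher in every class. On the log2(CPM + 1) scale Basp1 stood just inside this limit, with a smallest gap of 1.08, and Sap30l just outside it at 0.93. Ube2m at 0.67 lay further out, as did Ier5l at 0.65 and Clmn at 0.25, which were not tested in every class. The smallest gap lay in macrophage-like cells for Basp1 and Ube2m, in neutrophil-like cells for Sap30l, in T and NK-like cells for Ier5l and in keratinocyte-like cells for Clmn. With clusters in place of the gate and with doublets kept, 0 genes lay lower or higher by as much, Basp1 included. With a library left out the count ran from 4 to 157, the highest without uninjected 2. The macrophage-like class, which set the smallest gap of Basp1, held 5, 19, 6 and 9 of its UMIs.

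How a member's difference varied from class to class was described by 1 fit over the 24 class sums, with a term for each library, which takes up what a library shares over its classes. The fit reads the same differences by which the members were chosen, so its p-values for them are given as a description and nothing is read from them. For Sap30l, Basp1 and Ube2m, the members tested in every class, the class by treatment terms of edgeR had adjusted p of 0.750, 0.895 and 0.351, in a fit that called 0.0551% of 5445 genes. A filter over the joint table, added after the data were seen so that all 7 members entered, gave 0.0188 for Atp13a4, where 0.0234% of 12811 genes were called. The value for Atp13a4 was 0.189 with doublets kept, 0.172 without injected 1 and 0.0918 without injected 2. The values for Clmn, Ca5b, Ier5l, Sap30l, Basp1 and Ube2m were 0.0662, 0.391, 0.772, 0.898, 0.963 and 0.493, and that of Clmn was 0.0130 with clusters in place of the gate and 0.0396 with doublets kept.

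The members also differed in the classes in which they were high. Levels were compared as the mean over injected and uninjected libraries together, so for a gene whose shift differed between classes this mean carries the contrast by which it was chosen. Basp1 was higher in dendritic-like cells than in the mean of the other classes by 2.22 log2 units (SE 0.13, edgeR adjusted p = 6.9e-13) and in fibroblast-like cells by 1.13 (SE 0.14, adjusted p = 1.39e-07). In macrophage-like cells it was lower (log2 difference -4.06, SE 0.26, adjusted p = 1.44e-12). Sap30l was higher in keratinocyte-like cells by 1.52 (SE 0.13, adjusted p = 2.11e-10) and lower in dendritic-like cells (log2 difference -1.04, SE 0.20, adjusted p = 5.44e-05). Ube2m varied little, from -0.53 (SE 0.15) in T and NK-like cells to 0.52 (SE 0.14) in macrophage-like cells. Of the 18 pairs of these 3 genes with a class, 12 passed. Among all 5445 genes, 77.2% passed in fibroblast-like, 57.2% in macrophage-like, 77.7% in neutrophil-like, 74.6% in keratinocyte-like, 69.1% in T and NK-like and 66.3% in dendritic-like cells, so a share of 12 in 18 is near the background. Basp1 was highest in dendritic-like cells and Sap30l in keratinocyte-like cells in all 4 libraries, whereas the leading class of Ube2m differed between libraries.

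The fit with the joint filter, of 12811 genes, called 70.5% of them in fibroblast-like, 46.3% in macrophage-like, 59.5% in neutrophil-like, 68.4% in keratinocyte-like, 61.5% in T and NK-like and 56% in dendritic-like cells. Ier5l was higher there in macrophage-like cells by 3.03 log2 units (SE 0.19, edgeR adjusted p = 8.54e-14), and that class was its highest in all 4 libraries. It was lower in T and NK-like cells (log2 difference -2.71, SE 0.34, adjusted p = 1.36e-07) and in dendritic-like cells (log2 difference -1.51, SE 0.27, adjusted p = 2.94e-05). Atp13a4 was highest in keratinocyte-like cells in all 4 libraries, but below that class its order turned between the groups. In uninjected 1 and 2 neutrophil-like cells, at 37.2 and 36.6 CPM, were above fibroblast-like cells, at 9.91 and 11.0. In injected 1 and 2 they lay at 1.57 and 2.19 CPM, below fibroblast-like cells at 12.0 and 12.7. For Clmn and Ca5b the leading class itself turned between the groups. So no test of the mean level of Atp13a4, Clmn or Ca5b is given. Clmn led in macrophage-like cells in the uninjected libraries, but in the injected ones that class, at 0.922 and 0.508 CPM, lay below keratinocyte-like cells at 1.49 and 1.19. Ca5b led in T and NK-like cells in the injected libraries, while in the uninjected ones keratinocyte-like cells, at 9.09 and 8.53 CPM, were above T and NK-like cells at 8.79 and 2.87.

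Within keratinocyte-like cells the injected libraries stayed below the uninjected ones over cells of different depth for Ier5l, Sap30l, Basp1 and Ube2m. Below 5000 UMIs per cell Sap30l had 52.1 and 45.2 CPM, here without TMM scaling, in uninjected 1 and 2 and 10.4 and 9.26 in injected 1 and 2. From 15000 UMIs it had 117 and 116 uninjected and 18.3 and 21.9 injected. Ube2m had 98.0 and 172 uninjected against 16.9 and 34.0 in the shallow cells, and 194 and 345 against 42.0 and 71.1 in the deep ones. The level itself was higher in deep cells in every library for both genes, and the groups stayed apart at both ends. Ier5l ran the other way with depth, from 31.3 and 53.7 uninjected and 14.3 and 15.4 injected in shallow cells to 18.5 and 19.5 and 3.39 and 3.31 in deep ones. Ca5b kept its order, at 4.17 and 5.65 against 15.6 and 9.26 in shallow cells, from 2 to 12 UMIs a library, and 8.79 and 9.80 against 27.6 and 26.5 in deep ones. Clmn overlapped between the groups in cells from 5000 to under 15000 UMIs, at 2.47 and 7.79 against 2.55 and 2.69.

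**Figure D3:**
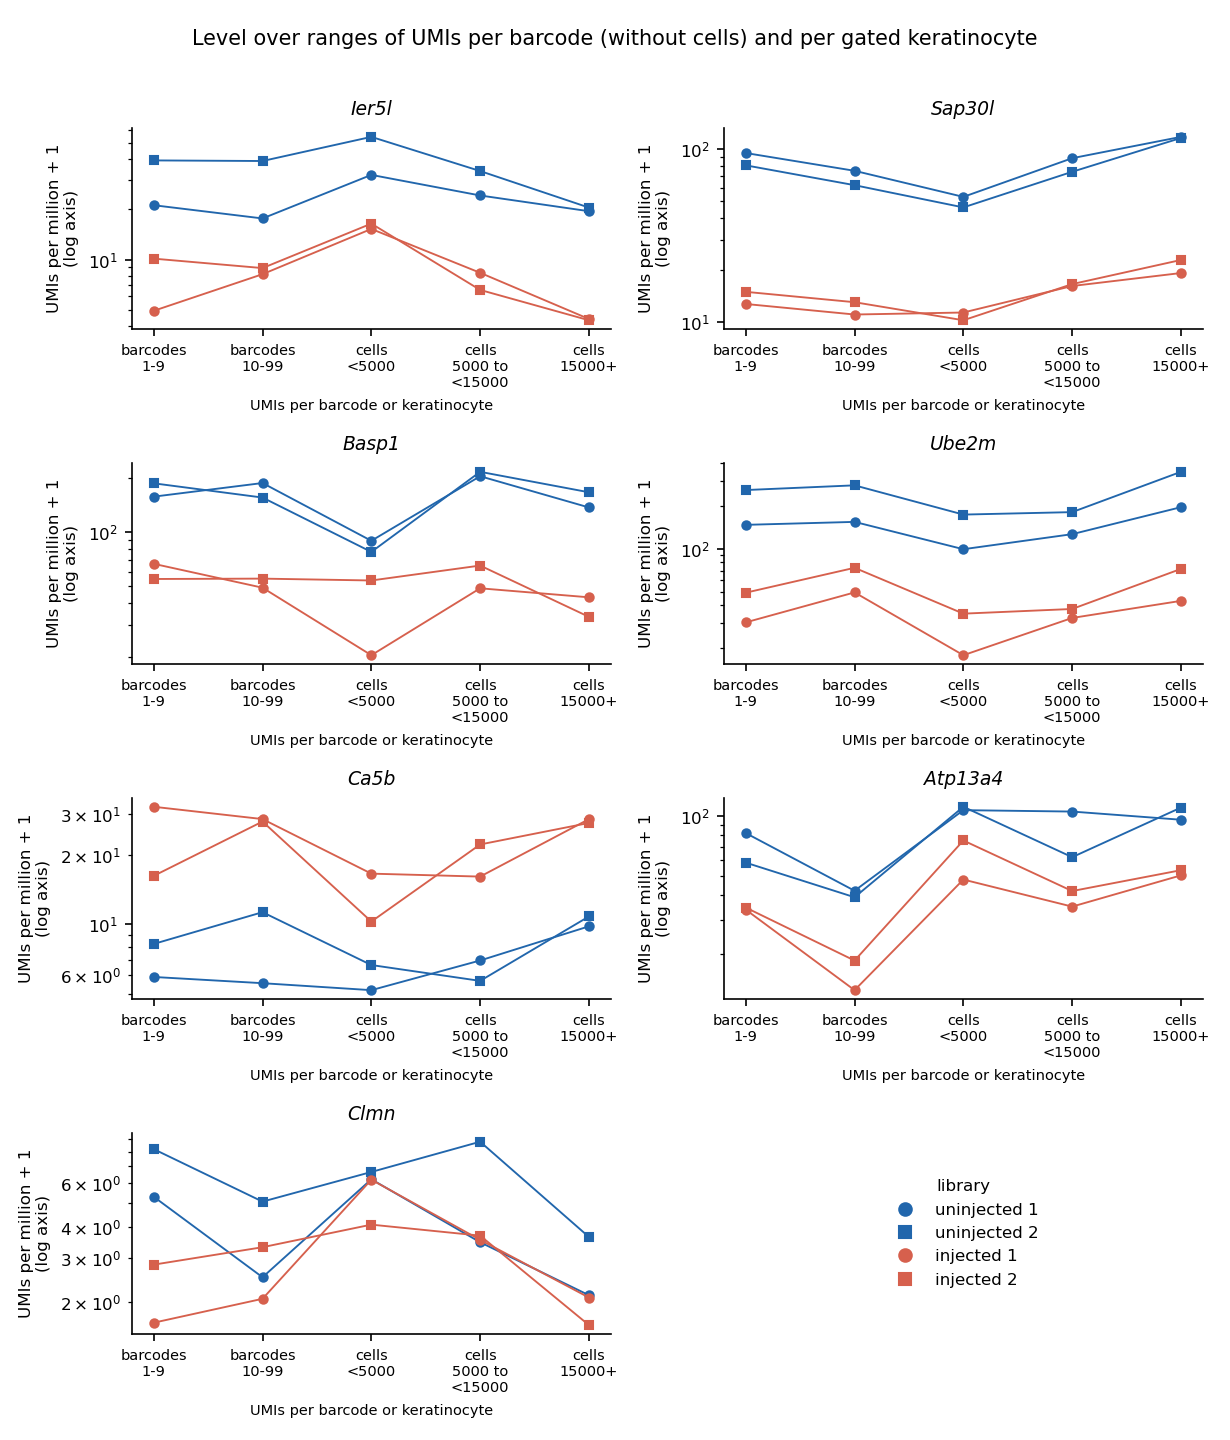
Level of each member as CPM + 1, without TMM scaling, on a log axis (vertical) over ranges of UMIs per barcode: barcodes of 1 to 9 and 10 to 99 UMIs, and gated keratinocyte-like cells below 5000, from 5000 to under 15000 and from 15000 UMIs (horizontal), with 1 line per library (blue uninjected, red injected). The red and blue lines stay apart over all 5 ranges for Ier5l, Sap30l, Basp1, Ube2m, Ca5b and Atp13a4 and cross for Clmn.

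Smaller classes, with 8 to 131 cells a library and under 50 in at least 1, gave the same order for Ube2m. Endothelial-like cells held 217 and 338 CPM of Ube2m, without TMM scaling, in uninjected 1 and 2 and 75.1 and 89.2 in injected 1 and 2. Mural-like cells held 169 and 319 uninjected and 59.5 and 62.9 injected, and skeletal muscle-like cells 419 and 679 uninjected and 96.7 and 142 injected. Mast-like cells, at 174 and 345 against 72.5 and 115, also had no overlap, so Ube2m was lower after injection in each of these 4 further classes. Sap30l in endothelial-like cells, at 78.1 and 43.9 against 9.56 and 20.4, and in mural-like cells, at 62.4 and 46.5 against 16.8 and 15.7, was lower too. Basp1 had no UMI in the endothelial-like cells of uninjected 1 and of injected 2, against 19 and 21 UMIs in uninjected 2 and injected 1, so the groups overlapped there. Ca5b was higher after injection in endothelial-like cells, at 10.1 and 27.6 uninjected and 44.1 and 63.7 injected. In mast-like cells Basp1 overlapped as well, at 205 and 395 uninjected and 302 and 98.3 injected.

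Finer clusters were read in the same way. Of the 15 clusters with at least 50 cells in every library, both injected libraries lay below both uninjected ones in all 15 for Ube2m, 14 for Basp1, 13 for Sap30l, 13 for Ier5l, 12 for Clmn and 9 for Atp13a4, and above them in 12 for Ca5b. No share of all genes is given for single clusters. In the gated classes 17% to 21.9% of tested genes lay wholly below and 18.4% to 21.6% wholly above. The members were picked on this contrast, so nothing is read from these counts. Ier5l, Sap30l, Basp1, Ube2m and Atp13a4 were lower and Ca5b was higher in each of the 5 keratinocyte clusters. Of the 4 neutrophil clusters Basp1, Ube2m and Clmn were lower in all 4, Ier5l and Atp13a4 in 3 and Sap30l in 2, and Ca5b was higher in 2. The difference of mean log2(CPM + 1) of Ube2m ran from -2.76 to -1.73 over the 15 clusters and that of Sap30l from -2.93 to -0.79. Basp1 ranged from -2.72 to 0.75, Ier5l from -2.96 to 0.71 and Clmn from -5.05 to 0.036, against -4.07 to 1.03 for Atp13a4 and -0.092 to 5.58 for Ca5b.

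**Figure D4:**
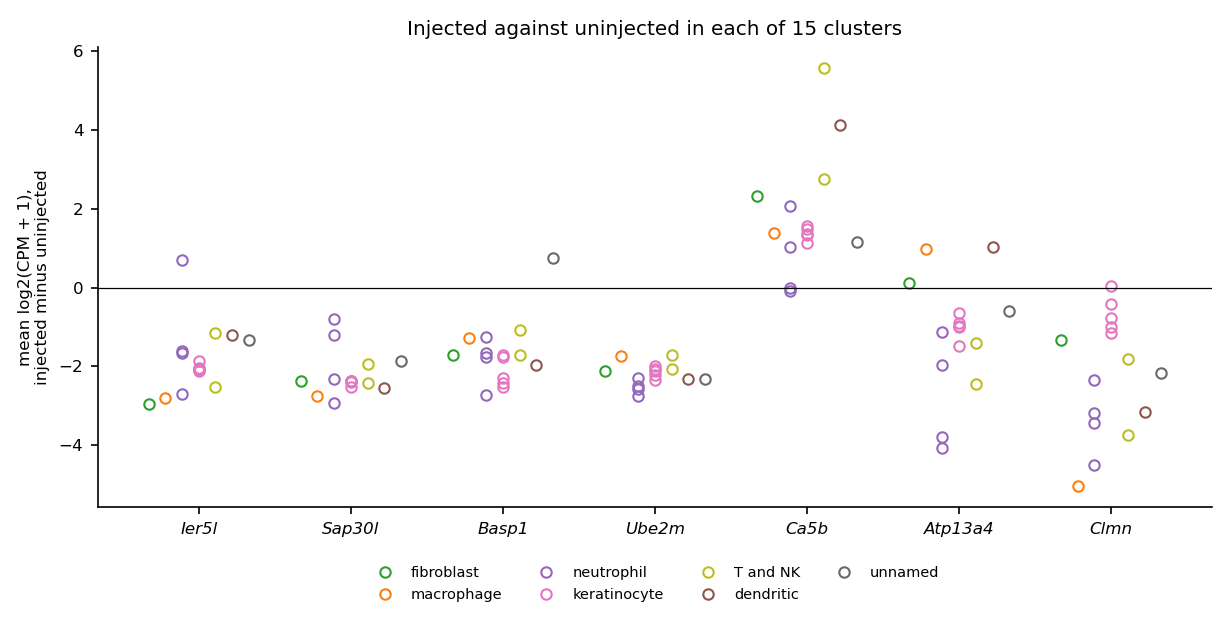
Difference of the mean log2(CPM + 1) of injected minus uninjected libraries (vertical) in each of 15 clusters (open circles, coloured by the name of the cluster) for each member (horizontal). All 15 circles lie below 0 for Sap30l and Ube2m, and the circles of the other 5 members fall on both sides, with Ier5l reaching 0.71, Basp1 0.75 and Clmn 0.036.

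The members resembled each other over the 24 class sums once the mean of each class was taken away from log2(CPM + 1), which is a description, since the sums share 4 libraries and this measure still holds the contrast by which the members were chosen, so that likeness among them follows from the choice. Sap30l and Basp1 were the closest pair, with a Pearson correlation of 0.952. The 6 genes that were lower in most classes correlated with each other at 0.538 to 0.952, the lowest being Ier5l with Atp13a4. Ca5b correlated with them at -0.817 to -0.389. The genes most like Ier5l were Ube2m (0.906), Cdc34 (0.905), a ubiquitin-conjugating enzyme of cullin ligases, and Ybx3 (0.882), a nucleic acid binding protein. Cdc34 was also among the top 3 of Sap30l (0.919), Basp1 (0.943) and Ube2m (0.930). The others of Sap30l and Basp1 were the unnamed gene AABR07073038.1 (0.951 with Sap30l) and Ppp2cb (0.919 with Basp1), a catalytic subunit of protein phosphatase 2A, and those of Ube2m were the small GTPase gene Rab21 (0.936) and Cdk2ap1 (0.934). Clmn was nearest to Rcor1 (0.901), a corepressor, Reln (0.877), which encodes the secreted protein reelin, and Ppp2cb (0.861). Ca5b was nearest to Zfp292 (0.811), Nat9 (0.810) and Itpr2 (0.801), a calcium channel of the endoplasmic reticulum, and Atp13a4 to Zfp703 (0.833), Cdc42bpa (0.814) and Gng12 (0.804). In the RefSeq table the 7 members lie on 7 different chromosomes, and of the 20 of these 21 genes that matched it, 0 pairs had 10 or fewer genes between them.

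Genes that work with the members or resemble them were read from lists of related genes. Of 498 pairs of such a gene with a class or with the low barcodes, 22 (4.42%) had an unadjusted p under 0.05, against 6.44% over all genes, and 0 were called in either direction by edgeR's quasi-likelihood test, against 0.038% of genes called in fibroblast-like cells and 0% elsewhere. DESeq2 called 1 pair, Ca4 in the low barcodes. Ier2, an immediate early gene of the same family as Ier5l, had 281 and 279 CPM in fibroblast-like cells of uninjected 1 and 2 and 434 and 558 CPM in injected 1 and 2, a log2 difference of 0.83 (SE 0.27) and of the other sign than Ier5l. Ier5 differed there by 0.33 (SE 0.28). Of the 16 SIN3 complex genes found, 13 had lower and 3 had higher values in fibroblast-like cells, with a median log2 difference of -0.17, and in keratinocyte-like cells 7 were lower and 9 higher, with a median of 0.030, where the medians of all genes were 0.0011 and 0.0014. Rbbp7, a histone-binding subunit, differed by -0.38 (SE 0.23) and Rbbp4 by 0.038 (SE 0.24) in fibroblast-like cells. The value of Sap30l in the same cells was -2.49.

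Of the NEDD8 pathway, 19 of 20 genes were tested in fibroblast-like cells, with a median log2 difference of -0.14, 4 being higher and 15 lower. The median was -0.15 in macrophage-like and -0.13 in neutrophil-like cells but 0.068 in keratinocyte-like, 0.10 in T and NK-like and 0.22 in dendritic-like cells, where 13 were higher and 5 lower and 8 lay wholly above in the injected libraries. So the median of the list shared the direction of Ube2m in the other classes but not in those 3. In fibroblast-like cells 9 of the 19 genes lay wholly below and 1 wholly above, against 20.4% and 21.6% of all tested genes. Dendritic-like cells had 0 wholly below and 8 above of 18, against 18.1% and 19.6%. T and NK-like cells had 3 and 8 of 18, against 19.3% and 21.1%. Macrophage-like cells had 4 and 2 of 18, neutrophil-like cells 3 and 0 of 15, and keratinocyte-like cells 3 and 3 of 19. In fibroblast-like cells Nedd8, the modifier that Ube2m carries, had 441 CPM in uninjected 1, 238 in uninjected 2 and 214 and 209.6 in injected 1 and 2. Uninjected 1 alone was high, and the log2 difference was -0.68 (SE 0.34). Rbx1, the RING subunit that binds Ube2m on most cullins, had the lowest value of the list and is named after its values were seen. In fibroblast-like cells it had 116 and 20.3 CPM in uninjected 1 and 2 and 18.1 and 15.5 CPM in injected 1 and 2, so it too was high in uninjected 1 alone (edgeR adjusted p = 0.436). For Basp1, the related membrane-bound proteins Marcks and Marcksl1 differed in fibroblast-like cells by -0.49 (SE 0.30) and 0.39 (SE 0.21), and Marcks differed by -1.85 (SE 0.50) in T and NK-like cells, from 65.9 and 33.0 to 14.6 and 8.51 CPM. Of the carbonic anhydrases other than Ca5b, 8 of 9 tested had higher values after injection in fibroblast-like cells, 6 of 10 in keratinocyte-like, 4 of 5 in dendritic-like, 1 of 3 in macrophage-like, 1 of 3 in neutrophil-like and 1 of 2 in T and NK-like cells. They included Ca4, a membrane-bound enzyme, at 822 and 531 CPM uninjected and 1716 and 1096 CPM injected in fibroblast-like cells, a log2 difference of 1.06 (SE 0.38), and Ca8 in dendritic-like cells, at 0 and 3.28 CPM against 26.8 and 11.4. In T and NK-like cells, where Ca5b differed most, Ca4 differed by -0.69 (SE 0.57). Polyamine genes had a median of -0.00049 in fibroblast-like cells and 0.0087 in keratinocyte-like cells, with Sat1, the enzyme that acetylates polyamines for export, at 0.90 (SE 0.28) and 0.34 (SE 0.25). Actin-linking genes related to Clmn had a median of -0.23 in macrophage-like cells over 12 genes, with Tagln2 at -0.027 (SE 0.48) and Macf1 at -0.13 (SE 0.35).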

How the data were processed

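The authors deposited UMI counts per gene and barcode, whole numbers from Cell Ranger 7.2.0 per the file headers, whereas version 5.0.1 stands in the submitters' processing notes. The genome build is not given in the sources used here. The members and the gene lists were chosen with earlier results of these data known.

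Cells were called in each library above a knee and, from 500 UMIs, by a multinomial test against low barcodes. Cells under 250 genes or over 20% mitochondrial UMIs were dropped, and Scrublet in scanpy 1.11.5 marked 778, 710, 926 and 323 doublets, which were removed. A gate placed a cell in the class whose markers gave the highest mean standardised score, at least 0.25 and at least 0.25 above the next, and read none of the members. It left 27.9% to 37.6% of cells ungated, and 12.9% to 16.5% lay within 0.1 of that gap. UMIs were summed per class and library, for classes of at least 50 cells in every library. The main test was edgeR 4.0.16 in R 4.3.3 (quasi-likelihood, TMM size factors, filterByExpr), Benjamini-Hochberg adjusted over all genes tested. With 2 libraries against 2, an exact permutation test cannot give a p below 0.333. Low barcodes were scaled with TMM where they stand beside the classes, while depth ranges, clusters and small classes are not scaled. The bound on free RNA compares each marker list of another class in a cluster with its level in the low barcodes. It takes the list with the lowest ratio as all free RNA. The bound thus holds only for RNA mixed as in the low barcodes.

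Alternatives were other size factors, filters, tests (DESeq2 1.42.0), classes and barcode ranges, doublets kept, a replicate block and each library left out. Named genes were the members, genes shifted alike in every class, the 3 most correlated genes of each member and the 2 of highest CPM in each related list, apart from a gene marked in the text. On simulated counts, the fibroblast-like fit called 76.3% of genes changed by 2 log2 units and 92.6% of those changed by 3 (12928 genes). The keratinocyte-like fit called 73.5% and 98% of them (13979 genes). The class by treatment fit called 99.5% of those changed by 3 (5445 genes). The fit of a class against the others called 100% of those changed by 2 (5445 genes). These fits also called 14, 21, 19 and 3 unchanged genes, in that order. Each gene was drawn on its own and changes were planted, so the simulation holds no trait that a whole library shares. Its shares therefore do not give the power of the fits on the real counts. There the keratinocyte-like fit called 0 of 14179 genes, and Sap30l, at -2.70 (SE 0.19), had an edgeR adjusted p of 0.177.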

Additional observations from a re-analysis of the deposited data

Results flagged for a closer look

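The class by treatment terms of edgeR gave Atp13a4 an adjusted p of 0.0188 with the filter over the joint table, that is, for a difference between injected and uninjected libraries that changed between classes. Atp13a4 was chosen on that contrast and the filter was added after the data were seen, so the value is a description. Its log2 difference was -4.35 (SE 0.47) in neutrophil-like cells, -1.25 (SE 0.17) in keratinocyte-like cells and 0.23 (SE 0.23) in fibroblast-like cells. Over the other settings of this fit the adjusted p by edgeR ran from 0.00338, without uninjected 2, to 0.189, with doublets kept, and it was above 0.05 also without injected 1 (0.172) and without injected 2 (0.0918).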

How the results depend on the processing

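Direction held in every one of 475 alternative values of 44 member and class differences but 1. Atp13a4 in fibroblast-like cells turned to -0.071 with doublets kept. Of the others, 357 stayed on the same side of the threshold, 114 passed it that had not, and 3 no longer passed, all of them Ier5l in fibroblast-like cells, with the replicate block (adjusted p = 0.136), without injected 1 (0.279) and without injected 2 (0.154), by edgeR. As the members were chosen on this contrast, these counts are a description.

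Counts of genes called moved with the setting. With no filter on low counts they were 673 in fibroblast-like, 71 in macrophage-like, 210 in neutrophil-like, 3 in keratinocyte-like, 169 in T and NK-like and 211 in dendritic-like cells and 231 in barcodes below 100 UMIs, against 5 in fibroblast-like cells and 0 elsewhere. DESeq2 called 156, 2, 18, 32, 5, 17 and 36 in the same order. At an unadjusted p under 0.05 edgeR's counts were 1404, 368, 593, 592, 454, 472 and 745. With clusters in place of the gate and with doublets kept, macrophage-like cells had 1 each, and barcodes of 10 to 99 UMIs had 1. Over the libraries left out the counts ran from 0 to 790, 0 to 148, 14 to 945, 0 to 514, 0 to 574, 2 to 522 and 0 to 1329, each highest without uninjected 2.

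The replicate block gave 0 genes in fibroblast-like cells and 1 in the low barcodes, and changed no other count. Deviations of same-numbered libraries correlated over genes at -0.188 to -0.0598. With 2 libraries a group this cannot tell whether the numbers mark a shared animal or day, which the labels do not say. Pairing the libraries crosswise, added after seeing the data, gave 21 genes in fibroblast-like, 5 in macrophage-like and 4 in neutrophil-like cells and 9 in the low barcodes.

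Genes whose difference changed between classes were 34 with clusters and 0 to 60 with a library left out. Pairs of gene and class that differed in level were 46402 with the joint filter, which takes in more genes, against 22986. Genes shifted alike by at least 1 log2 unit were 0 with clusters and with doublets kept, 4 to 157 with a library left out, and 59 for a shift of any size.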
